A study of Mus musculus with 10 samples.

Results

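This account covers the liver of mice that carried a transgene for the nuclear, transcriptionally active form of human SREBP-1a (TgSREBP-1a), set against wild-type littermates (SREBP wild type). It uses 4 of the series' 10 arrays, chosen by their labels: 2 TgSREBP-1a arrays and 2 SREBP wild-type arrays. All probe sets other than the manufacturer's controls were taken, which gave 11868 of 11934. Both groups were males aged 12 to 16 weeks that ate a diet high in protein and low in carbohydrate for 2 weeks, given to drive the transgene. Its promoter and line are not given in the sources used here. Total liver RNA of 5 mice per group was mixed into 1 pool of 20 µg, and each pool was hybridised to 2 MG_U74Cv2 arrays, the third chip of an Affymetrix mouse set. The duplicates therefore repeat the hybridisation and not the animals, and every p-value below measures the spread between hybridisations of a pool alone.

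Arrays of 2 further genotypes are cited for comparison. TgSREBP-2 mice carried the nuclear form of human SREBP-2, had the same sex, age and diet, and share the SREBP wild-type arrays as their control. Scap-/- mice (Scap-/-;MX1-Cre, males of 10 to 12 weeks on Teklad chow) and their Scap wild type received 4 injections of polyinosinic-polycytidylic acid, which induces Cre, and livers were taken 14 days later. The Scap arrays share no array with the TgSREBP-1a comparison, and they differ from it in diet, age and injections.

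SREBPs are transcription factors made as membrane proteins of the endoplasmic reticulum. SCAP escorts them to the Golgi when sterols are low, and proteases release the amino-terminal part, which enters the nucleus and binds sterol regulatory elements, usually beside sites for NF-Y and Sp1. A truncated transgene product skips that control. SREBP-1a is the isoform known to activate both cholesterol synthesis and fatty acid synthesis, while SREBP-2 acts mainly on cholesterol synthesis and uptake. In the liver these pathways feed bile, membranes and lipoproteins.

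Deposited values are log2 signals per probe set, and levels below are on that scale. No probe set on this chip stands for Srebf1, Srebf2, Scap, Fasn, Scd1 or Insig1, so the transgene and several textbook targets were not measured. Of 20 hepatocyte markers 3 were measured. Hpx, which encodes the plasma haem carrier haemopexin, stood at 10.67 and 10.12 in wild type and 10.44 and 10.34 in TgSREBP-1a, while Serpina1a (3.22 to 3.71 on the 4 arrays) and Ahsg (2.77 to 2.95) read in the dimmest part of the chip. Alb, Ttr and Apoa1 were not measured either. Duplicate arrays correlated at 0.993 (SREBP wild type) and 0.995 (TgSREBP-1a) across probe sets. The highest correlations with an array of another group were 0.994 and 0.992 for wild-type replicates 1 and 2. For TgSREBP-1a replicates 1 and 2 they were 0.991 and 0.992. Wild-type replicate 1 was thus closer to an array of another group than to its duplicate. The duplicates were not alike in all respects. The mean 18S ribosomal RNA signal was 6.47 and 8.70 on wild-type replicates 1 and 2 and 6.06 and 8.11 on TgSREBP-1a replicates 1 and 2. Wild-type replicate 1 read above replicate 2 at 69 of the 81 probe sets called higher and 36 of the 42 called lower below, against 48.3% of all probe sets. TgSREBP-1a replicate 1 read above replicate 2 at 62 of the 81 and 25 of the 42, against 43.9% of all, so the duplicates leaned the same way by number in both groups. With the 18S signal as a covariate, 76 of the 81 and all 42 kept their calls.

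A probe set was called when limma's adjusted p was under 0.05 and the difference was at least 1.5-fold. By that rule 81 probe sets were higher in TgSREBP-1a (0.683% of those tested) and 42 were lower (0.354%), 123 in all (1.04%). Among the higher ones 38 differed by 2-fold or more and 5 by 4-fold or more. Among the lower ones 21 passed 2-fold and 4 passed 4-fold. Leaving out 1 array moved these counts. The higher count was 29 without wild-type replicate 2, 24 without TgSREBP-1a replicate 1 and 37 without TgSREBP-1a replicate 2, and the lower count 23 without wild-type replicate 1 and 16 and 20 without those TgSREBP-1a arrays. The median difference over all probe sets was -0.03 log2. All 123 called probe sets had TgSREBP-1a arrays on one side of both wild-type arrays. Such separation was common: both TgSREBP-1a arrays lay above both wild-type arrays at 15.2% of all probe sets and below them at 24.2%. The higher calls carry 1 gene symbol at 71 probe sets (70 genes), several at 2 and none at 8, and the lower calls at 32 (31 genes), 2 and 8.

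**Figure D1:**
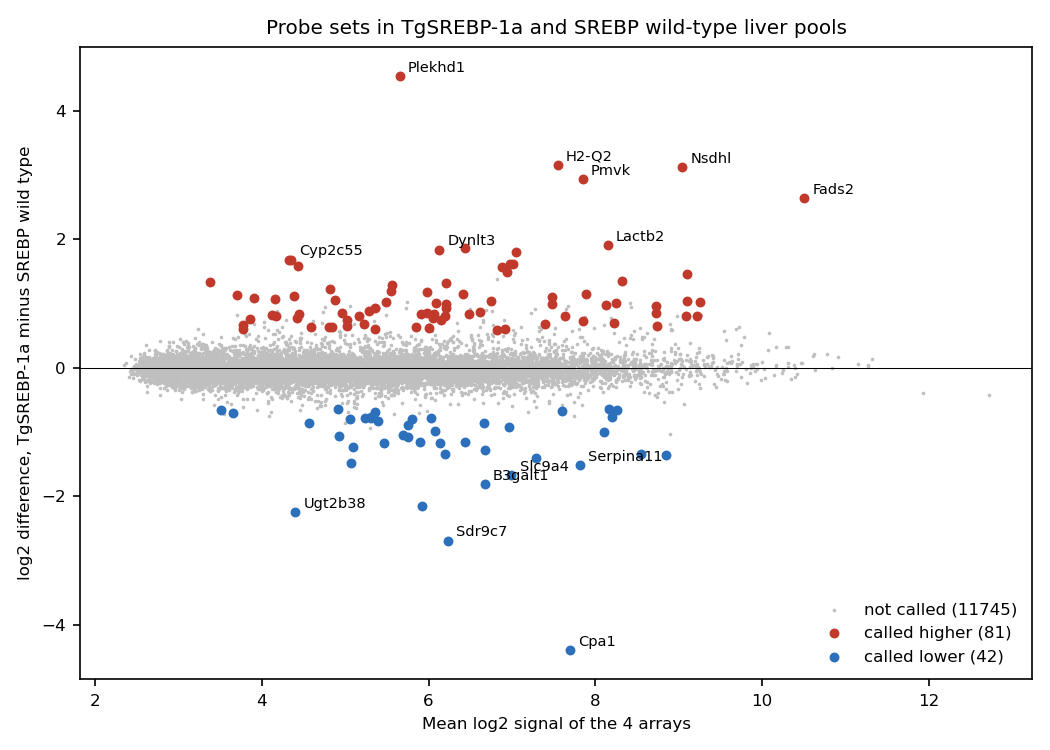
Each point is 1 of the 11868 probe sets, with the mean log2 signal of the 4 arrays on the horizontal axis and the log2 difference, TgSREBP-1a minus SREBP wild type, on the vertical axis. The 81 probe sets called higher (red) and the 42 called lower (blue) cover dim and bright signals, and Plekhd1 (a fitted 4.54 from a dim wild-type level) and Cpa1 (-4.39) lie at the extremes.

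Probe sets on this chip often disagree about a gene. Of the 94 named genes with a called probe set, 34 have more than 1 probe set, and at 32 of these another probe set was not called. Only Nipal1 and Ugt2b38 were called at all of theirs. The suffix _f_at, which marks probes shared within a gene family, was carried by 37.0% of the higher probe sets against 9.19% of all, and the plain suffix _at by 45.7% against 63.1%. Where a gene is named, a disagreeing probe set is given beside it. A level whose lower group lies under 3.54, as 25% of the chip's probe sets do on average over the 10 arrays, is given without a fold, and a fitted log2 difference from such a level is not read as the size of the change.

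The cholesterol pathway held some of the strongest increases. Of 15 measured genes of cholesterol synthesis 3 rose and none fell, with a median difference of 0.18 log2 against -0.02 over all 5928 genes, of which 1.01% were called higher and 0.489% lower. The 3 are an early enzyme, Pmvk, and Tm7sf2 and Nsdhl of the later sterol steps. Pmvk makes diphosphomevalonate early in the pathway, Tm7sf2 is a sterol C14 reductase, and Nsdhl removes carboxyl groups from the C4 position of sterol intermediates. Promoter windows of these genes and of Fads2, the raised desaturase described further on, are shown first because the factor under study acts at promoters. They come from RefSeq on GRCm38.p6 and run from 250 bases before to 50 bases after a transcript start. Capitals mark matches on either strand to CCAAT (the NF-Y box), GGGCGG (the Sp1 box), TCACNCCAC (a form of the sterol regulatory element) or CACGTG (an E-box), with no overlap between matches.
Nsdhl, chrX:72918271-72918570, plus strand: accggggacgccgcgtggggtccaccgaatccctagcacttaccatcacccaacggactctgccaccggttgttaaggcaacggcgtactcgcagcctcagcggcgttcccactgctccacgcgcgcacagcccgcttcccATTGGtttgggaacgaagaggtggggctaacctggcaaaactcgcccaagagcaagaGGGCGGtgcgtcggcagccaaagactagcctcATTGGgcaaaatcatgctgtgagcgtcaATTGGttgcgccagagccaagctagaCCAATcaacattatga
Pmvk, chr3:89454291-89454590, plus strand: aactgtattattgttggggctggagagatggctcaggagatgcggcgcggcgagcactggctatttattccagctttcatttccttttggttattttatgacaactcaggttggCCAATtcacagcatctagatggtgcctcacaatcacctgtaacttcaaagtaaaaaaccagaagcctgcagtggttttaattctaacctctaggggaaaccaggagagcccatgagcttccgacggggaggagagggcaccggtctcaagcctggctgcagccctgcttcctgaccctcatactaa
Tm7sf2, chr19:6067801-6068100, minus strand: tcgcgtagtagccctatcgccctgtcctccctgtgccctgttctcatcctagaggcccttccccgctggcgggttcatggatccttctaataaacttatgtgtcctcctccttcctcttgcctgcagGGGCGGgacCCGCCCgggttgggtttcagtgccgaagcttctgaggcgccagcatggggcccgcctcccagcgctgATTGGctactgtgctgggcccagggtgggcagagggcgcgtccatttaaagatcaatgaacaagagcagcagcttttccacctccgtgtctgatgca
Fads2, chr19:10101454-10101753, minus strand: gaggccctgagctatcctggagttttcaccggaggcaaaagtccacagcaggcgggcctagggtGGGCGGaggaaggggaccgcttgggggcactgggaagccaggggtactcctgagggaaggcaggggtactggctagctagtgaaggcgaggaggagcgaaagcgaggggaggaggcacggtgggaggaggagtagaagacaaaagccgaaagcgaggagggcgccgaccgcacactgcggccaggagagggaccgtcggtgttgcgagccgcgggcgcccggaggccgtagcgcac

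The Nsdhl window holds 4 CCAAT matches and 1 GGGCGG match, the Tm7sf2 window 1 and 2, the Pmvk window 1 CCAAT match, and the Fads2 window 1 GGGCGG match. None of these windows has a TCACNCCAC or a CACGTG match, nor has a second Pmvk window that starts at 89459321. Among all raised genes with a window, 26 of 57 (45.6%) held CCAAT, 35 (61.4%) GGGCGG, 3 (5.26%) CACGTG and 1 (1.75%) TCACNCCAC. The same shares over the 4700 array genes with a window were 42.2%, 58.4%, 9.70% and 1.40%. Among lowered genes 16 of 25 held CCAAT (64.0%), 8 GGGCGG (32.0%), 2 CACGTG (8.0%) and none TCACNCCAC. The raised genes' shares of CCAAT and GGGCGG thus lay within a few percentage points of those of the array's genes. The single raised gene with TCACNCCAC was Camk1d, a calcium/calmodulin-dependent kinase. In 1 of 2 windows TCACCCCAC lies on the minus strand relative to the gene. The leftmost base of the match in the printed window is at -68.
Camk1d, chr2:5675997-5676296, minus strand: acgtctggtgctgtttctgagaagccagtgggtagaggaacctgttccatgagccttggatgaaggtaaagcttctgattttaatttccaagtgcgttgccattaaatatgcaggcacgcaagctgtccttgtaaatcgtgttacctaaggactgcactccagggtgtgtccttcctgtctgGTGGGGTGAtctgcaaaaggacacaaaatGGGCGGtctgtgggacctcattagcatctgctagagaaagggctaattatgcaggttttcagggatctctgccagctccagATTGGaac

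Nsdhl (168360_f_at) read 7.79 and 7.17 in wild type and 10.68 and 10.51 in TgSREBP-1a. Its difference was 3.12 ± 0.28 log2 (SE), or 8.67-fold, with a limma adjusted p of 0.00019. Both transgenic arrays lay far above both controls. Pmvk (167266_f_at) read 6.64 and 6.12 against 9.40 and 9.23, a difference of 2.93 ± 0.17 (7.64-fold, adjusted p 4.1e-06). Here too the groups were well apart, but a second Pmvk probe set differed by 0.03. Tm7sf2 (169465_s_at) read 8.70 and 8.06 against 9.87 and 9.79, 1.45 ± 0.23 (2.74-fold, adjusted p 0.01). Of these 3 calls, that of Tm7sf2 alone depended on single arrays. It held only when all arrays were used or wild-type replicate 1 was left out, and the other 3 fits without an array gave adjusted p up to 0.13.

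The other 12 measured genes of the pathway were not called. Lss, which closes the sterol ring as lanosterol synthase, read 5.02 and 4.95 against 5.47 and 5.52 and missed the fold floor (0.51, adjusted p 0.039). Cyp51, lanosterol demethylase, read 4.71 and 4.81 against 5.46 and 5.44 (0.69, adjusted p 0.16). Fdps, farnesyl diphosphate synthase, ran the other way at 5.29 and 5.48 against 4.64 and 5.02 (-0.55, adjusted p 0.14). Values that moved least among the bright ones were those of Mvd (10.27 and 10.28 against 10.26 and 10.44) and Dhcr7 (7.89 and 7.97 against 7.91 and 8.15). The remaining 7 genes, Mvk, Idi2, Msmo1, Hsd17b7, Sc5d, Ggps1 and Stard4, differed by -0.17 to 0.41. The pathway as measured here was thus mixed, with 11 of 15 genes above 0.

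Sterol transport was thinly covered. Of 31 listed genes of sterol uptake, transport and SREBP control 4 were measured and Abcg8 was the one called. Abcg8 forms with Abcg5 the transporter that exports cholesterol into bile. Its probe set (165625_r_at) read 7.61 and 7.68 in wild type and 8.97 and 9.01 in TgSREBP-1a, 1.35 ± 0.15 (2.55-fold, adjusted p 0.0012). The duplicates nearly coincided in both groups, and the call held without any 1 of the 4 arrays. Mbtps1, the site-1 protease that cuts SREBPs, differed by -0.17, Npc2 by 0.04 and Osbpl8 by 0.11. Outside the list, Abca5, an ABC transporter of lysosomes and endosomes, rose from 5.95 and 5.72 to 7.09 and 6.87 (1.14 ± 0.15, 2.21-fold, adjusted p 0.0037), a call lost without TgSREBP-1a replicate 1 (adjusted p 0.073).

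**Figure D2:**
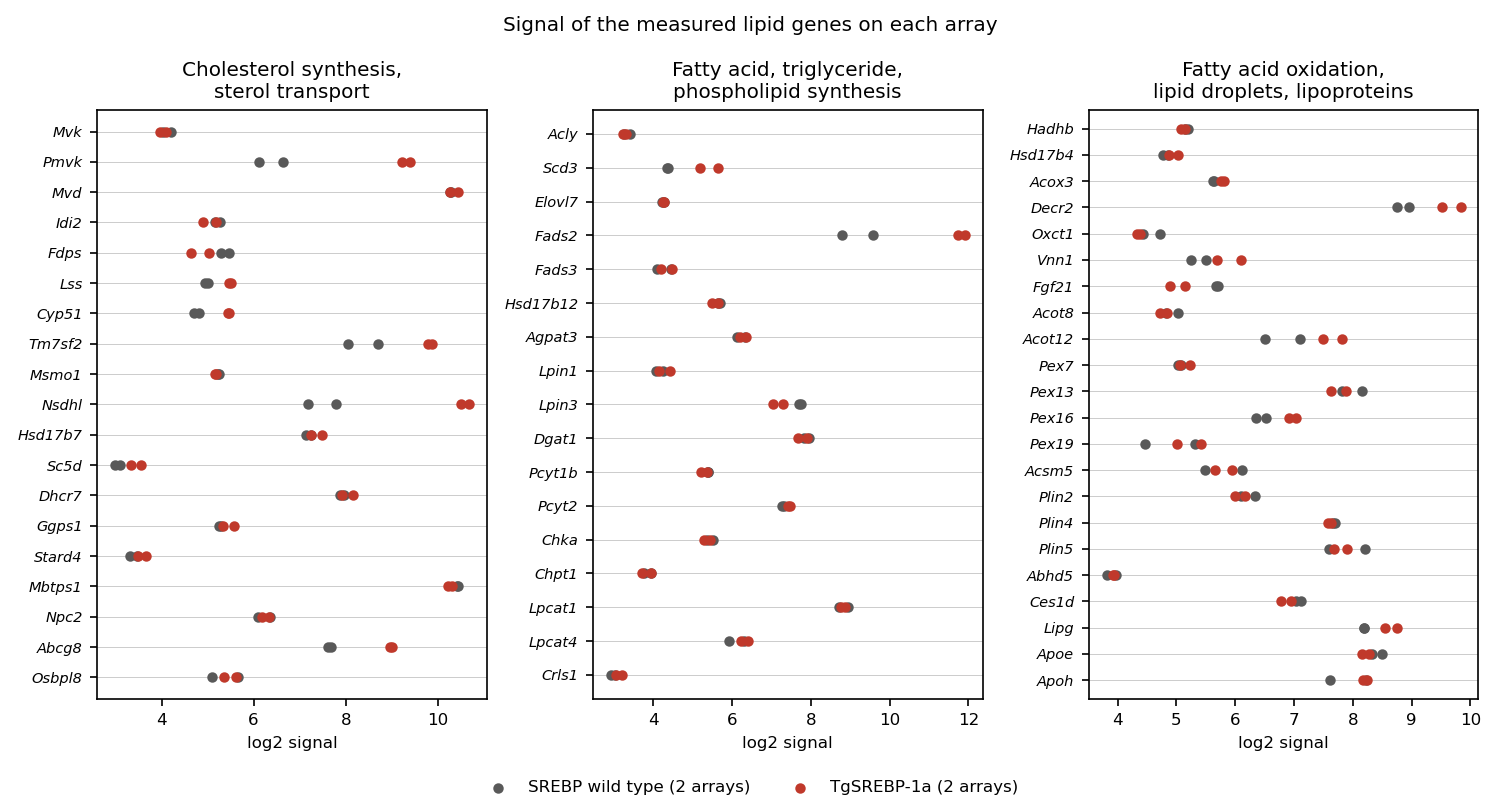
Log2 signal (horizontal axis) of every measured gene of the cholesterol and sterol transport lists, the fatty acid, triglyceride and phospholipid synthesis list, and the fatty acid oxidation and lipid droplet lists, at the brightest probe set of the gene. Grey points are the 2 SREBP wild-type arrays and red points the 2 TgSREBP-1a arrays. Nsdhl, Pmvk, Tm7sf2, Abcg8, Fads2 and Scd3 separate to the right, Fgf21 separates to the left, and most other genes overlap or lie within 0.5 log2.

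For fatty acid, triglyceride and phospholipid synthesis, 17 of 59 listed genes were measured, 2 rose and none fell, with a median of 0.02. Fads2, the delta-6 desaturase that starts the making of long polyunsaturated fatty acids, was among the brightest of all called genes. It read 9.57 and 8.80 in wild type and 11.91 and 11.75 in TgSREBP-1a (167328_s_at, 2.64 ± 0.25, 6.25-fold, adjusted p 0.00027). Scd3, a stearoyl-CoA desaturase whose sequence is close to that of its relatives, read 4.34 and 4.36 against 5.18 and 5.64 (138407_f_at, 1.06 ± 0.16, 2.08-fold, adjusted p 0.0067). Its probes may pick up other Scd genes, and its call was lost without wild-type replicate 2 or TgSREBP-1a replicate 2 (adjusted p up to 0.075). Lpin3, a phosphatidate phosphatase, gave opposite readings: -0.55 (adjusted p 0.052) at the brighter 166143_f_at, with 7.75 and 7.69 against 7.04 and 7.30, and a called 0.84 at 166116_at, with 5.75 and 5.53 against 6.45 and 6.51. The latter call was lost in 3 of the 4 fits without an array (all but that without wild-type replicate 1), with adjusted p up to 0.2. The other 14 genes differed by -0.10 to 0.20. They include Acly, which supplies acetyl-CoA (-0.07 at a dim probe set, 3.24 to 3.42 on the 4 arrays), Lpin1 (0.12), Dgat1, the final step of triglyceride synthesis (-0.09), and Pcyt2, of phosphatidylethanolamine synthesis (0.15). Mthfd1, the one measured gene of NADPH supply, differed by 0.10.

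Mitochondrial genes, grouped in part after their values were seen, included further increases. Cyb5b, a cytochrome b5 of the outer mitochondrial membrane, rose from 6.44 and 5.97 to 7.95 and 7.67 (168386_f_at, 1.61 ± 0.30, 3.06-fold, adjusted p 0.025), while its second probe set differed by 0.26. It was the one call among 34 measured genes of mitochondrial respiration and cytochrome b5, whose median was -0.02. Lactb2, a mitochondrial endoribonuclease of the metallo-beta-lactamase fold, read 7.75 and 6.64 against 9.19 and 9.02 (1.91 ± 0.34, 3.77-fold, adjusted p 0.019). Its wild-type duplicates were over 1 log2 apart. Micu2, a regulator of mitochondrial calcium uptake, rose by 0.96, Acad9, an acyl-CoA dehydrogenase that also assembles respiratory complex I, by 0.78 and Coq8a, of coenzyme Q synthesis, by 0.63. Each of these calls rested on single arrays: those of Cyb5b, Acad9 and Coq8a were lost in all 4 fits without an array (adjusted p up to 0.26, 0.11 and 0.38). The Lactb2 call was lost in 3 of the 4 (all but that without wild-type replicate 1, up to 0.21) and the Micu2 call without wild-type replicate 2 or TgSREBP-1a replicate 1 (up to 0.1). Second probe sets read 0.14 for Micu2 and -0.07 and 0.02 for Acad9.

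Fatty acid oxidation genes showed 0 increases and 1 decrease among 14 measured, with a median of 0.12 and 5 genes at an unadjusted p under 0.05. Over all probe sets 9.4% had such an unadjusted limma p. The decrease was that of Fgf21, described with its receptor in the next paragraph. Decr2, a peroxisomal dienoyl-CoA reductase, read 8.95 and 8.76 against 9.84 and 9.52 (0.82, adjusted p 0.053), and Acot12, a cytosolic acetyl-CoA thioesterase, 7.10 and 6.50 against 7.81 and 7.50 (0.86, adjusted p 0.22). Both sat above both controls, as did 15.2% of all probe sets, without passing the test. Vnn1 differed by 0.52 and Pex16 by 0.53, and the other 9 genes by -0.23 to 0.32. None of 8 measured genes of lipid droplets, lipases and lipoproteins was called (median -0.09, 1 at an unadjusted p under 0.05). Among them Plin2 (-0.13), Plin4 (-0.08) and Plin5 (-0.11), which coat lipid droplets, Apoe (-0.20) and the lipase Lipg (0.46) all had adjusted p of 0.17 or more.

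The hormone FGF21 and its co-receptor fell together. FGF21 is secreted by the liver and acts through FGF receptors that need beta-klotho, the product of Klb. Fgf21 (165847_i_at) read 5.68 and 5.72 in wild type and 4.89 and 5.14 in TgSREBP-1a, -0.69 ± 0.10 (1.61-fold lower, adjusted p 0.0078). Klb (166935_i_at) read 6.22 and 6.38 against 5.29 and 5.15, -1.08 ± 0.10 (2.12-fold lower, adjusted p 0.00027). The Klb call held without any 1 array, and that of Fgf21 was lost without wild-type replicate 2 or TgSREBP-1a replicate 1 (adjusted p up to 0.11). Pik3r1, the regulatory subunit of the kinase downstream of the insulin receptor, rose from 6.41 and 6.07 to 7.44 and 7.10 (1.03 ± 0.20, 2.05-fold, adjusted p 0.029), a call lost in all 4 fits without an array (up to 0.33). The 6 other measured genes of the FGF21 and insulin list, Fgfr1, Fgfr2, Akt2, Igfbp2, Grb10 and Grb14, differed by -0.10 to 0.04, and the list's median was -0.02.

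In glucose and glycogen metabolism 5 genes were measured and 1 was called. Ppp1r3g, a subunit that brings protein phosphatase 1 to glycogen, rose from 5.66 and 5.43 to 7.09 and 6.66 (139276_at, 1.33 ± 0.15, 2.51-fold, adjusted p 0.00085), and the call held without any 1 array. The others were Pkm (0.09), Pck2 (-0.11), Pcx (0.01) and Khk (-0.21). Of other growth factor genes outside the lists, Nrg4, a secreted neuregulin, rose from 7.52 and 7.45 to 8.15 and 8.27. Its difference was 0.73 ± 0.10 (1.65-fold, limma adjusted p 0.0031), a call that also held without any 1 array. Egfr, the receptor of epidermal growth factor, fell from 5.62 and 5.30 to 4.68 and 4.64 (-0.80 ± 0.12, 1.74-fold lower, adjusted p 0.0061), a call lost without either TgSREBP-1a array (up to 0.075).

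Intracellular signalling genes called higher included Sik1, a salt-inducible kinase, at 7.04 and 6.94 against 7.93 and 8.03 (0.99 ± 0.15, 1.98-fold, adjusted p 0.0078). Camk1d, whose promoter is printed above, rose by 0.63 (5.54 and 5.54 against 6.23 and 6.11, adjusted p 0.0055), and Rcan2, a calcineurin regulator, by 0.66. Genes of inositol phosphate turnover, grouped after their values were seen, were Ipmk (1.18), Ip6k2 (1.01 at 133081_at), both kinases, and Nudt3 (1.28), a hydrolase of diphosphoinositol phosphates. The 5 other Ip6k2 probe sets read -0.11 to 0.79 and a second Ipmk probe set -0.05. Calls of Sik1, Ipmk and Ip6k2 were lost in 3 of the 4 fits without an array (all but that without wild-type replicate 1, adjusted p up to 0.095, 0.26 and 0.26), that of Nudt3 in all 4 (up to 0.34), that of Rcan2 without either TgSREBP-1a array (up to 0.074) and that of Camk1d without TgSREBP-1a replicate 1 (0.09). Among 24 listed transcription factors of liver and lipid metabolism 2 rose and none fell (median 0.03). They were Klf16, a Krüppel-like factor (4.81 and 4.72 against 5.47 and 5.66, 0.80 ± 0.12, adjusted p 0.0057), and Nr2c1, an orphan nuclear receptor (6.66 and 6.58 against 7.26 and 7.18, 0.60 ± 0.12, adjusted p 0.037). Outside the list the transcription factors Rfx7 (0.80), Sall1 (0.86) and Atmin (0.65, with -0.06 at a second probe set) rose as well. The Nr2c1 and Sall1 calls were lost in all 4 fits without an array (up to 0.32 and 0.39), those of Rfx7 and Atmin in 3 (all but that without wild-type replicate 1, up to 0.11 and 0.36), and that of Klf16 without wild-type replicate 2 or TgSREBP-1a replicate 2 (up to 0.08).

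Genes of detoxification changed in both directions. Of 9 measured genes of glutathione, glucuronide and sulfate conjugation 2 rose and 1 fell, with a median of 0.03. Sult1e1, the oestrogen sulfotransferase, rose from 4.06 and 4.35 to 5.45 and 5.42 (130124_at, 1.23 ± 0.12, 2.34-fold, adjusted p 0.00042), and the call held without any 1 array. Gstm1, a glutathione transferase, rose from 8.80 and 8.83 to 9.67 and 9.56 (137229_f_at, 0.80 ± 0.11, adjusted p 0.0031), a call lost without TgSREBP-1a replicate 1 (0.061). Its 2 other probe sets read 0.06 and -0.27, and the family members Gstm2 and Gstm5 0.03 and 0.04. Ugt2b38, a UDP-glucuronosyltransferase, fell at both of its probe sets. They read 5.78 and 5.60 against 4.97 and 4.89 (137212_f_at, -0.76 ± 0.14, adjusted p 0.025) and 6.02 and 5.02 against a dim 3.19 and 3.35 (137211_i_at, adjusted p 0.00085). The latter held without any 1 array, and the former was lost in all 4 such fits (up to 0.2). Sult2a8 read 4.0 and 3.82 against 3.24 and 3.15 without passing the test (-0.71, adjusted p 0.17).

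Among 7 measured cytochrome P450 genes 1 rose and 1 fell, with a median of -0.09. Cyp2c55, an enzyme that oxidises arachidonic acid, stood at 3.45 and 3.56 in wild type, where the chip is dim, and at 5.30 and 5.08 in TgSREBP-1a (134079_f_at, adjusted p 0.014). Cyp2c23, an arachidonic acid epoxygenase, fell from 8.79 and 8.38 to 7.91 and 7.73 (137246_f_at, -0.76 ± 0.13, 1.70-fold lower, adjusted p 0.018). Both probe sets are of the shared kind. The Cyp2c55 call was lost in all 4 fits without an array (up to 0.18) and that of Cyp2c23 in 3 (all but that without wild-type replicate 2, up to 0.17). The call among 20 aldehyde, alcohol and short-chain dehydrogenases was Sdr9c7, a retinol dehydrogenase relative best known from skin. It read 7.80 and 7.34 in wild type and 4.87 and 4.91 in TgSREBP-1a (166225_f_at, -2.69 ± 0.21, 6.44-fold lower, adjusted p 5.5e-05), with no overlap and no loss of the call without any 1 array, while the list's median was -0.04.

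Other redox and iron genes are outside the lists. Blvrb, biliverdin reductase B, rose from 6.46 and 5.93 to 7.79 and 7.57 (167261_f_at, 1.49 ± 0.20, 2.81-fold, adjusted p 0.0037), but a second probe set read -0.05 and the call was lost without TgSREBP-1a replicate 1 (0.073). Ggct, of glutathione turnover, read 2.84 and 2.59 in wild type, at the bottom of the chip, and 4.32 and 3.78 in TgSREBP-1a (adjusted p 0.0025). Hephl1, a ferroxidase of the hephaestin family, rose from 3.88 and 3.78 to 4.98 and 4.91 (134633_at, 1.11 ± 0.10, 2.16-fold, adjusted p 0.00019). The calls of Ggct and Hephl1 held without any 1 array. Scara5, a scavenger receptor that takes up ferritin, fell from 6.44 and 5.94 to 5.36 and 5.24 (-0.89 ± 0.15, 1.86-fold lower, adjusted p 0.017), with -0.10 at a second probe set. Bdh2, a cytosolic dehydrogenase linked to siderophore and ketone body metabolism, fell from 6.87 and 6.26 to 5.62 and 5.53 (-0.98 ± 0.16, 1.98-fold lower, adjusted p 0.012). The Scara5 call was lost in all fits without an array other than that without wild-type replicate 2 (up to 0.16), and that of Bdh2 without either TgSREBP-1a array (up to 0.12).

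In amino acid metabolism 1 of 13 measured genes was called. Nat8, which acetylates cysteine conjugates, fell from 9.47 and 8.97 to 8.0 and 7.75 (167026_at, -1.34 ± 0.18, 2.54-fold lower, adjusted p 0.0037), a call lost without TgSREBP-1a replicate 2 (0.061). The other 12 differed by -0.26 to 0.28 and include Tdo2 (-0.11), Got2 (-0.15) and Asns (0.03), and the list's median was -0.11. Of 109 solute carriers 1 was called. Slc9a4, a sodium/proton exchanger, fell from 8.26 and 7.39 to 6.31 and 6.01 (168495_i_at, -1.67 ± 0.27, 3.18-fold lower, adjusted p 0.011), a call lost in 3 of the 4 fits without an array (all but that without wild-type replicate 2, up to 0.12). Outside the carriers, Nipal1, a magnesium transporter, rose at both of its probe sets, from 7.69 and 7.59 to 8.72 and 8.53 (0.98 ± 0.11) and from 3.71 and 3.54 to 4.79 and 4.60 (1.07 ± 0.13), and both calls held without any 1 array.

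**Figure D3:**
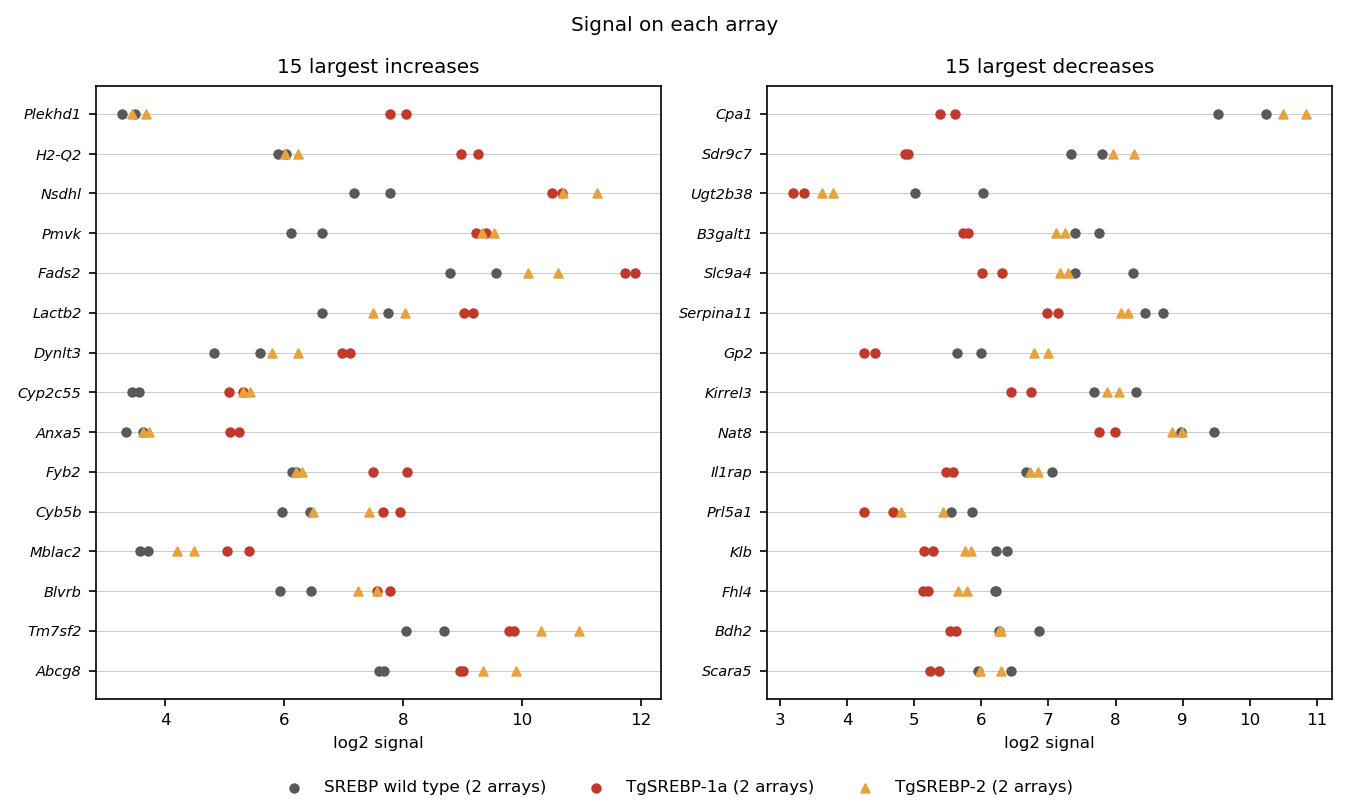
Log2 signal (horizontal axis) of the 15 named genes with the largest increases (left) and the 15 with the largest decreases (right), with SREBP wild-type arrays in grey, TgSREBP-1a arrays in red and TgSREBP-2 arrays as orange triangles, 2 arrays each. The 30 genes were chosen among called probe sets whose red and grey points do not overlap, so that separation is fixed by the choice. The triangles lie beside the red points for genes such as Pmvk (9.54 and 9.33). They lie beside or past the grey points for genes such as Plekhd1, H2-Q2 and Cpa1 (10.84 and 10.49).

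The second-largest increase was that of H2-Q2, a class I gene of the Q region of the mouse histocompatibility complex, a family whose members share much sequence. It read 6.03 and 5.91 in wild type and 9.27 and 8.98 in TgSREBP-1a (166432_f_at, chromosome 17, 3.16 ± 0.15, 8.94-fold, adjusted p 7.4e-07). The call held without any 1 array. The other 5 measured genes of antigen presentation, Ciita, H2-Aa, Psmb8, Tap2 and Tapbp, differed by -0.14 to 0.07. Of 13 interferon response genes 1 was called, the secreted glycoprotein gene Lgals3bp, at 8.58 and 8.03 against 9.25 and 9.06 (0.85 ± 0.17, 1.80-fold, adjusted p 0.04). The median of that list was -0.02, with Irf7 at 0.41, Oas1b at -0.14 and Oas3 at 0.02. Ifi27l2b was called higher at its dimmer probe set (0.61) and read -0.20 at its brighter one. Calls of Lgals3bp and Ifi27l2b were lost in 3 and 4 of the 4 fits without an array (adjusted p up to 0.37 and 0.28), the former kept only without wild-type replicate 1.

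Macrophage markers were partly higher. Of 21 listed markers of macrophages and Kupffer cells 3 were measured and 2 rose. Vsig4, the complement receptor of Kupffer cells, rose from 7.59 and 7.04 to 8.48 and 8.44 (132172_at, 1.14 ± 0.20, 2.20-fold, adjusted p 0.018). Laptm5, a lysosomal protein of blood cells, rose from 8.75 and 8.41 to 9.68 and 9.57 (167764_f_at, 1.05 ± 0.15, 2.06-fold, adjusted p 0.0054). C1qc, a complement subunit made by macrophages, differed by 0.17. The sum of the 3 log2 levels, which is not a total signal, was 22.7 and 21.7 in wild type and 24.6 and 24.5 in TgSREBP-1a. More cells of a type and more RNA per cell cannot be told apart in such samples. Pirb and Lacc1 are outside the marker list and were placed here after their values were seen. Pirb, an inhibitory receptor of myeloid and B cells, rose from 4.06 and 4.01 to 4.80 and 4.81 (0.77). Lacc1, an enzyme of macrophages, rose from a dim 3.54 and 3.42 to 4.44 and 4.03, with 0.11 at a second probe set. The Vsig4 and Pirb calls were lost in 3 of the 4 fits without an array (all but that without wild-type replicate 1, adjusted p up to 0.19 and 0.092), that of Lacc1 in all but that without TgSREBP-1a replicate 2 (up to 0.21), and that of Laptm5 without wild-type replicate 2 or TgSREBP-1a replicate 1 (up to 0.086). Measured markers of endothelial cells (3), T and NK cells (3), neutrophils (2), red cells (2), stellate cells and fibroblasts (2) and skeletal muscle (4) included no call. The stellate cell lectin Colec11 read 6.56 and 5.70 against 7.61 and 7.41 (1.38, adjusted p 0.072).

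Markers of pancreatic acinar cells included the largest decrease on the chip. Cpa1, the digestive carboxypeptidase A1, read 10.25 and 9.53 in wild type and 5.38 and 5.60 in TgSREBP-1a (165431_at, -4.39 ± 0.20, 21-fold lower, adjusted p 7e-07). Gp2, a membrane glycoprotein of zymogen granules, fell from 5.99 and 5.64 to 4.25 and 4.41 (165494_i_at, -1.48 ± 0.16, 2.79-fold lower, adjusted p 0.00084). Cuzd1, a zymogen granule protein, read 3.81 and 3.86 in wild type and a dim 3.15 and 3.21 in TgSREBP-1a (adjusted p 0.02), a call lost in all 4 fits without an array (up to 0.21). The calls of Cpa1 and Gp2 held without any 1 array. The 6 other measured acinar genes of the 22 listed were not called and all lay slightly below 0, between -0.23 (Cela2a, at 6.16 and 6.16 against 5.95 and 5.90) and -0.02 (Ptf1a). Pla2g1b, a secreted phospholipase of the pancreas, read 8.04 and 8.28 against 7.98 and 8.13. The sum of the 9 log2 levels, which is not a total signal, was 50.4 and 48.7 in wild type and 42.1 and 42.5 in TgSREBP-1a. Cpa1 made up the largest part of that difference. The part of carried-over pancreas in these values was not tested.

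Secreted liver proteins and their relatives included 2 increases and 3 decreases among 36 listed serpins and genes of coagulation, complement and the acute phase, with a median of -0.05. Lgals3bp, given above, is one increase. The other, Mblac2, an acyl-CoA thioesterase, is in the list by its letters alone. Serpina11, a hepatic serpin, fell from 8.70 and 8.43 to 6.97 and 7.15 (137551_at, -1.51 ± 0.12, 2.84-fold lower, adjusted p 0.00011), and the call held without any 1 array. Serpina12, the adipokine vaspin, fell from 8.69 and 8.48 to 7.94 and 7.91 (-0.66 ± 0.14, 1.58-fold lower, adjusted p 0.047). Il1rap, a co-receptor of interleukin-1 that also circulates, fell from 7.06 and 6.66 to 5.57 and 5.48 (133805_at, -1.33 ± 0.26, 2.52-fold lower, adjusted p 0.03), with -0.08 at a second probe set. The calls of Serpina12 and Il1rap were lost in all 4 fits without an array (up to 0.28 and 0.21). Fga, a fibrinogen chain, differed by -1.04 without passing the test (adjusted p 0.067).

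Among 48 measured dynein, kinesin, myosin, tubulin and actin genes 3 rose and none fell (median -0.01). Dynlt3, a dynein light chain, read 5.59 and 4.82 against 7.12 and 6.97 (167201_f_at, 1.84 ± 0.37, 3.58-fold, adjusted p 0.041), but 2 other probe sets read -0.27 and -0.04. Fyb2, an adaptor protein known from T cells that the list includes, read 6.20 and 6.13 against 8.06 and 7.51 (166704_i_at, 1.62 ± 0.15, 3.07-fold, adjusted p 0.00027). Myl12a, a myosin regulatory light chain, read 5.91 and 5.57 against 6.61 and 6.73 (0.93 ± 0.15, 1.91-fold, adjusted p 0.012), with 0.05 at a second probe set. The Fyb2 call held without any 1 array, and those of Dynlt3 and Myl12a were lost in 3 of the 4 such fits (all but that without wild-type replicate 1, up to 0.36 and 0.14). Anxa5, an annexin that binds phosphatidylserine in the presence of calcium, rose from a dim 3.62 and 3.34 to 5.24 and 5.09 at 169667_f_at (adjusted p 0.00027), while its 2 other probe sets read -0.12 and 0.16. Anxa4 rose by 0.84 at 1 of 3 probe sets (the others read 0.08 and 0.21), a call lost in all 4 fits without an array (up to 0.24).

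Further genes of this kind, outside the lists, were Kank2 (1.19), which links actin to adhesions, Sh3bgrl3 (0.81), Epb41l5 (0.74), a band 4.1 relative, Napa (1.03), the alpha-SNAP of membrane fusion, Ap5s1 (1.01), of the AP-5 coat, and Borcs7 (0.87), which positions lysosomes. Second probe sets read 0.37 for Sh3bgrl3, 0.22 for Napa, 0.07 for Borcs7, and 0.06 and 0.04 for Epb41l5. Each call was lost in at least 1 fit without an array: in all 4 for Kank2 (adjusted p up to 0.34), in all but that without wild-type replicate 1 for Sh3bgrl3, Napa and Ap5s1 (up to 0.14, 0.16 and 0.45), without wild-type replicate 2 or TgSREBP-1a replicate 1 for Epb41l5 (0.082), and without TgSREBP-1a replicate 1 for Borcs7 (0.056). No gene was called among 79 of vesicle traffic (median -0.0031, 6 at an unadjusted p under 0.05), 135 of ubiquitin and the proteasome (0.01, 15), 35 ribosomal proteins (-0.04, 11), 49 of extracellular matrix and integrins (-0.05, 5), 13 of the cell cycle (-0.16, 2) or 3 of the oxidative stress response (0.16, 0). The share of all probe sets at an unadjusted limma p under 0.05 was 9.4%. Of 5 genes of ER stress the one call was Fgf21 (median -0.06). No gene of the bile acid list was measured.

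**Figure D4:**
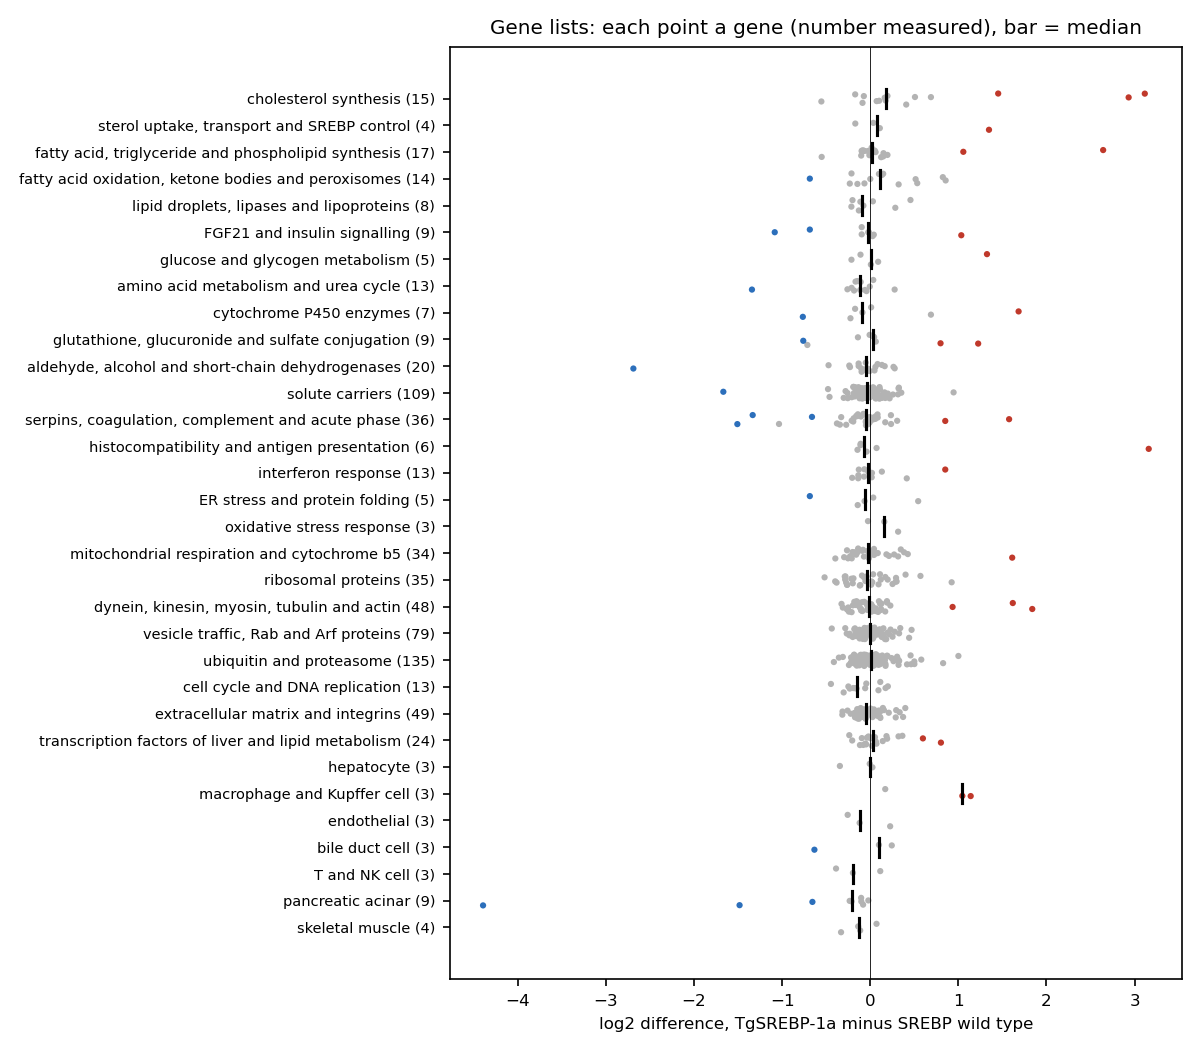
Log2 differences, TgSREBP-1a minus SREBP wild type (horizontal axis), for the genes of each list with at least 3 measured members, whose number is in parentheses. Red points were called higher, blue points lower and grey points neither, and the black bar is the list's median. Medians lie near 0 for nearly all lists, and the calls are single genes far from them. The 3 macrophage markers, with a median of 1.05, stand farthest to the right.

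The largest fitted increase was that of Plekhd1, which encodes a protein with a pleckstrin homology domain and coiled coils. It read a dim 3.27 and 3.49 in wild type and 8.05 and 7.79 in TgSREBP-1a (129277_at, chromosome 12, adjusted p 5.2e-09). On the TgSREBP-2 arrays it read 3.45 and 3.67. Mblac2 rose from 3.58 and 3.71 to 5.03 and 5.41 (134225_i_at, 1.58 ± 0.14, 2.98-fold, adjusted p 0.00015), with 0.42 at a second probe set. Both calls held without any 1 array. Entpd5, a nucleotidase of the endoplasmic reticulum that aids glycoprotein folding, rose by 1.10 at 1 of 3 probe sets (the others read -0.12 and 0.13), Fpgt, of fucose salvage, by 0.86 (0.20 at a second probe set), Pigv, of GPI-anchor synthesis, by 0.81, and the co-chaperone genes Dnajb2 and Hspa4l by 0.94 and 0.60, with -0.20 at a second Dnajb2 probe set. The ubiquitin hydrolase gene Uchl3 rose by 0.88, the nucleotidase relative Nt5dc1 by 0.84 and the acid phosphatase gene Acpp by 0.84. Of matrix-associated genes Smoc2 rose by 0.82, Spon2 by 0.68 and the hyaluronidase gene Cemip2 by 0.68. Second probe sets read -0.16 for Smoc2 and -0.07 for Spon2. Gramd3 and Knop1 rose from dim levels (3.22 and 3.06, and 3.60 and 3.34, in wild type), and Ly6k by 0.64, with 0.06 and 0.18 at second probe sets of Knop1 and Ly6k. None of the calls from Entpd5 on held in every fit without an array. Pigv, Hspa4l, Uchl3, Nt5dc1 and Smoc2 were lost in all 4 (adjusted p up to 0.38), and Entpd5, Fpgt, Dnajb2, Cemip2, Ly6k and Knop1 in 3 (all but that without wild-type replicate 1, up to 0.38). Spon2 was lost without wild-type replicate 2 or TgSREBP-1a replicate 1 (up to 0.22), Acpp without TgSREBP-1a replicate 2 (0.063) and Gramd3 without replicate 1 (0.061).

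The remaining decreases were of varied function. B3galt1, a galactosyltransferase of glycan chains, fell from 7.75 and 7.40 to 5.80 and 5.73 (134736_f_at, -1.81 ± 0.13, 3.51-fold lower, adjusted p 2.4e-05), with -0.09 and -0.49 at its other probe sets. Kirrel3, a cell adhesion protein, fell from 8.31 and 7.68 to 6.44 and 6.74 (-1.40 ± 0.18, 2.64-fold lower, adjusted p 0.0027). Prl5a1, of the prolactin family, fell from 5.87 and 5.55 to 4.68 and 4.25 (-1.24 ± 0.20), and Fhl4, a LIM domain protein, from 6.21 and 6.22 to 5.21 and 5.12 (-1.05 ± 0.13). Both stayed clear of the controls. Epcam, a surface marker of bile duct cells, fell from 8.52 and 8.45 to 7.82 and 7.87 (170480_at, -0.63 ± 0.09, 1.55-fold lower, adjusted p 0.0054), with 0.05 and 0.01 at its other probe sets. The 2 other measured bile duct markers, Sox9 and Cldn7, differed by 0.24 and 0.10. Smaller decreases were those of Arhgap6 (-0.86), a GTPase-activating protein, Klk1b21 (-0.79), a kallikrein of a large family, Fam47e (-0.78), Sun3 (-0.77), of the nuclear envelope, and Ascc2 (-0.68). The calls of B3galt1 and Fhl4 held without any 1 array. Those of Sun3 and Ascc2 were lost in all 4 such fits (up to 0.21 and 0.22), those of Arhgap6 and Klk1b21 in all but that without wild-type replicate 2 (up to 0.22 each), those of Fam47e and Prl5a1 without wild-type replicate 1 and without TgSREBP-1a replicate 1 (Fam47e) or 2 (Prl5a1) (up to 0.12 each), and those of Kirrel3 and Epcam without TgSREBP-1a replicate 1 (0.057 and 0.081).

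Among probe sets without a gene name, 135538_at rose from 5.48 and 5.54 to 7.35 and 7.39 (1.86 ± 0.12, 3.63-fold), 167247_f_at from 6.43 and 5.75 to 7.81 and 7.51 (1.57 ± 0.24), and 132035_at from a dim 3.46 and 3.27 to 4.54 and 4.36. The largest unnamed decreases were 171596_at, from 7.22 and 6.76 to 4.81 and 4.88 (-2.15 ± 0.14, 4.45-fold lower), 131782_at (-1.17 ± 0.14) and 168690_i_at (-1.16 ± 0.18). The call of 167247_f_at was lost without wild-type replicate 2 or TgSREBP-1a replicate 1 (adjusted p up to 0.13) and that of 168690_i_at in all fits but that without wild-type replicate 1 (up to 0.1). The other 4 held.

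TgSREBP-1a was then tested directly against TgSREBP-2, to ask where livers with the nuclear isoforms differ. In this test 32 probe sets were higher in TgSREBP-1a (0.27%) and 29 lower (0.244%), 61 in all (0.514%). The higher count fell to 13 without TgSREBP-1a replicate 1 and to 18 without either TgSREBP-2 array. The lower count fell to 10 without TgSREBP-1a replicate 1, and to 12 without TgSREBP-1a replicate 2 or TgSREBP-2 replicate 1. Against wild type, TgSREBP-2 had 13 probe sets higher (0.11%) and 1 lower (0.00843%), 14 in all (0.118%), and both transgenic comparisons share the wild-type arrays. The raised sterol genes did not differ beyond the test between the transgenics: Nsdhl by -0.38 (SE 0.28, adjusted p 0.86), Pmvk by -0.12 (SE 0.17, 0.95), Tm7sf2 by -0.81 (SE 0.23, 0.28) and Abcg8 by -0.64 (SE 0.15, 0.16). That does not show that their levels were equal. Fads2 read 11.91 and 11.75 with TgSREBP-1a and 10.62 and 10.11 with TgSREBP-2, a difference of 1.47 ± 0.25 (2.76-fold, adjusted p 0.026) whose call was lost in all 4 fits without an array (up to 0.321).

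Outside lipid synthesis the transgenics differed at some of the called genes and not at others. The genes were picked by their difference from wild type on the same TgSREBP-1a arrays, so the direct test leans towards a difference. Cyp2c55 was also called higher in TgSREBP-2 than in wild type (5.31 and 5.42, limma adjusted p 0.032). At 137211_i_at Ugt2b38 was also called lower there (3.79 and 3.62, adjusted p 0.014). Neither was called between the transgenics (adjusted p 0.96 and 0.77). Each of these calls against wild type rests on the same SREBP wild-type arrays. For Cyp2c55 those arrays (3.45 and 3.56) read below the means of Scap wild type (4.64) and Scap-/- (5.62). For Ugt2b38 at 137211_i_at they (6.02 and 5.02) read above those means (4.08 and 3.83). The Scap mice differed in diet, age and injections. Whether the SREBP wild-type pool was unusual at these genes was not tested. Plekhd1 (4.36), H2-Q2 (3.0), Ppp1r3g (1.78), Fyb2 (1.53), Anxa5 (1.48), Sult1e1 (1.37), Hephl1 (1.07), Acpp (1.01), Cemip2 (0.94) and Nrg4 (0.78) were higher in TgSREBP-1a than in TgSREBP-2, and these calls held without any 1 array. Calls that did not hold in each such fit were those of Gramd3, Abca5, Ip6k2, Ggct, Smoc2, Nipal1, Mblac2, Gstm1, Camk1d, Sh3bgrl3 and Borcs7 (fitted differences of 0.66 to 1.21, those of Gramd3 and Ggct from dim levels). Those of Gramd3 and Camk1d were lost without TgSREBP-1a replicate 1 alone (adjusted p 0.0596 and 0.058), and those of Sh3bgrl3 and Borcs7 in all 4 fits (up to 0.398 and 0.324). Cpa1 (-5.18), Sdr9c7 (-3.23), Gp2 (-2.56), Cuzd1 (at a dim level), B3galt1 (-1.42) and Serpina11 (-1.08) were lower in TgSREBP-1a, again in every fit without an array. The calls of Nat8 (-1.04), Scara5 (-0.84), Klk1b21 (-0.78), Ascc2 (-0.72) and Klb (-0.59) were lost in all 4 such fits (up to 0.413), and that of Kirrel3 (-1.36) without replicate 1 of either genotype (up to 0.101).

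The 3 acinar genes lay on opposite sides of wild type in the transgenics. Against wild type, Cpa1 differed by -4.39 in TgSREBP-1a and 0.78 in TgSREBP-2 (not called), and Gp2 by -1.48 and 1.08, both called. Cuzd1 averaged 3.84 in wild type, a dim 3.18 in TgSREBP-1a and 4.96 in TgSREBP-2. Its TgSREBP-1a call was lost in all 4 fits without an array, and its increase in TgSREBP-2 was called (adjusted p 0.0015). In Scap-/- against its own wild type, Cpa1 differed by -2.86 and Gp2 by -1.32, both called lower.

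Scap-/- liver lacks the escort that both SREBPs need, so it was read beside TgSREBP-1a for the same probe sets. The Scap comparison called 5 probe sets higher (0.0421%) and 5 lower (0.0421%), 10 in all (0.0843%). Of the 81 raised probe sets 5 were at least 1.5-fold lower in Scap-/- (6.17%, against 0.152% of all): Nsdhl (-2.47), Tm7sf2 (-1.83), Pmvk (-1.73), Fads2 (-1.19) and Cyb5b (-1.10). The first 3 were called in that comparison (adjusted p 0.0062, 0.0096 and 0.0015), and Fads2 and Cyb5b were not (0.37 and 1). Another 3 of the 81 were at least 1.5-fold higher in Scap-/- (3.70%, against 0.118% of all): Cyp2c55 (0.98), Ifi27l2b (0.96, at its dimmer probe set) and Nudt3 (0.70), of which Ifi27l2b was called (adjusted p 0.0078). Of the 42 lowered probe sets 3 were lower by that much (7.14%), Cpa1, Gp2 and 2210010C04Rik (-0.91), and 1 was higher (2.38%), C730036E19Rik (0.66). Of the 81, 40 read below 0 in Scap-/-, close to the 49.8% of all probe sets. Plekhd1 (0.06), H2-Q2 (-0.14), Anxa5 (0.49), Fyb2 (0.20), Abcg8 (-0.21), Ppp1r3g (0.24) and Sult1e1 (0.35) had no call there, nor had Klb (-0.16), Fgf21 (0.28), Sdr9c7 (0.09) and Serpina11 (-0.34).

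**Figure D5:**
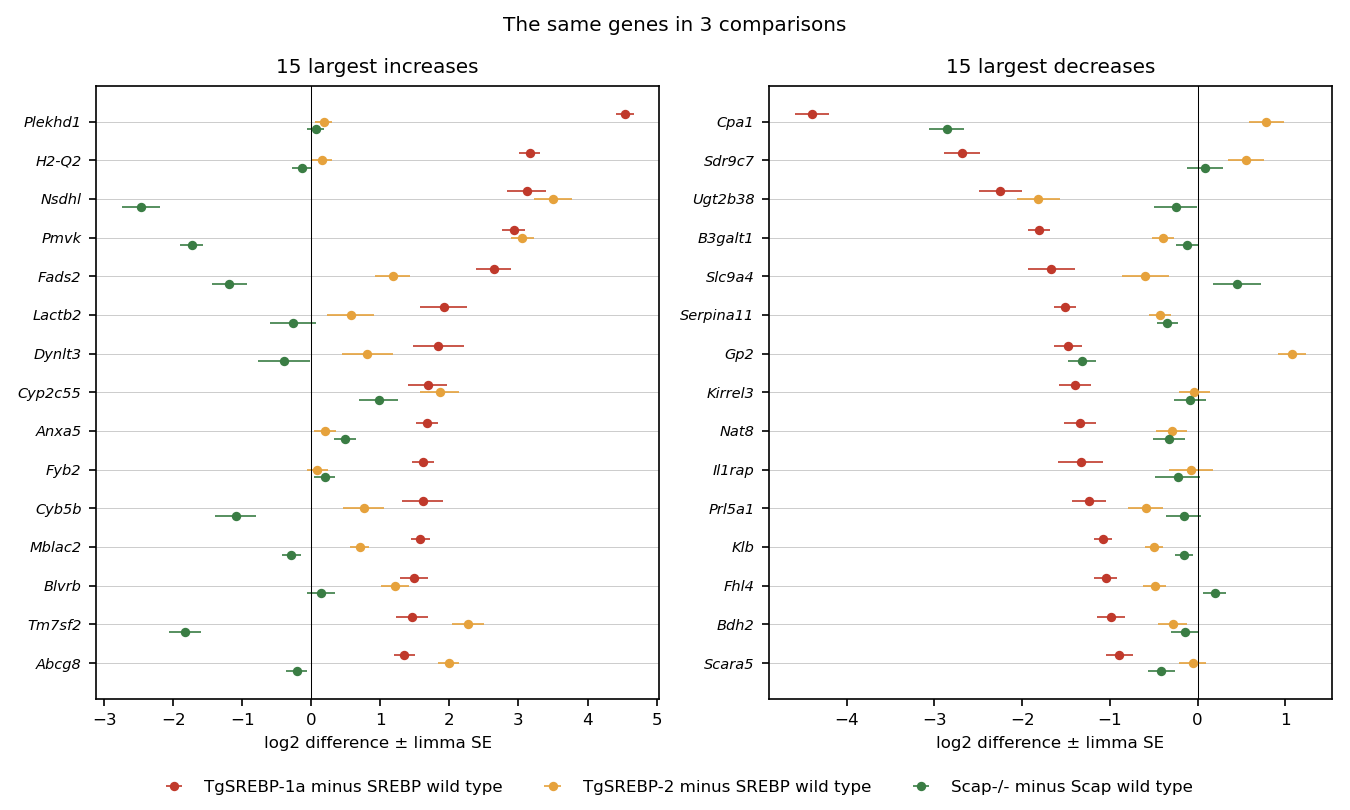
Log2 differences with limma standard errors (horizontal axis) of the 15 largest increases and 15 largest decreases in TgSREBP-1a, shown in 3 comparisons: TgSREBP-1a (red) and TgSREBP-2 (orange), both against the same SREBP wild-type arrays, and Scap-/- against Scap wild type (green). Nsdhl, Pmvk, Tm7sf2, Fads2 and Cyb5b have red and orange points right of 0 and green points at -1.10 or lower, while Plekhd1 and H2-Q2 have only the red point away from 0.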

How the data were processed

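Liver RNA pools were hybridised in duplicate to Affymetrix MG_U74Cv2 arrays. The deposited values are log2 expression per probe set, made by the authors with RMA per the submitters' processing notes, with no version given. Microarray Suite 5.0 is named for the original processing in the design text. RMA corrects background, normalises across arrays and summarises probes, so levels on the arrays depend on each other. No detection calls were used, and the number of arrays limits the precision.

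Of 11934 probe sets, 66 AFFX controls were left out and 11868 tested. The platform annotation names 1 gene for 7717, several for 150 and none for 4001. The brightest probe set stood for a gene in lists. A limma 3.58.1 fit (R 4.3.3) held all 10 arrays in 5 groups, with 5 residual and 6.26 prior degrees of freedom. Two-sided p-values were adjusted by Benjamini and Hochberg's method over the probe sets of each comparison. The fit was tested on simulated arrays with independent noise. It called 42% of 50 changes of 1.5-fold and 98 to 100% of those of 2-fold or more, with 7 false calls. Deviations shared between same-numbered arrays and differences between pools were not simulated.

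Called probe sets with 1 ordinary gene symbol could be named. Array values were given for the 15 largest increases and decreases among those whose arrays did not overlap between the groups. They were also given for called list members and, in part by plot, measured lipid genes. Further genes are given by their differences. The comparison, members and lists were chosen with earlier results of these data known. Alternatives covered normalisation, filters, variance models, thresholds, the arrays in the fit, an 18S covariate and a replicate block.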

Additional observations from a re-analysis of the deposited data

How the results depend on the processing

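Counts of probe sets are given for TgSREBP-1a against wild type (81 higher, 42 lower) and against TgSREBP-2 (32 higher, 29 lower). Quantile normalisation, median centring and cyclic loess each kept all 81 and all 42 calls against wild type, and put the median of all probe sets at -0.0087, -0.0051 and -0.0015 log2, against -0.03. Plain _at probe sets alone gave 41 higher and 26 lower against wild type, and 14 lower against TgSREBP-2. A 2-fold floor gave 38 and 21 against wild type, and 14 and 17 against TgSREBP-2. Limma's treat against 1.2-fold gave 30 and 17, and 14 and 13. The brighter probe sets alone gave 20 higher against TgSREBP-2, and a fit of the compared arrays alone 47 lower. The cause of the last was not tested. The others ask for larger changes or test fewer probe sets.

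Leaving out 1 array, where the lone array left in its group is assumed to vary like the other groups, gave 24 to 74 higher and 16 to 34 lower against wild type, and 13 to 23 and 10 to 20 against TgSREBP-2. Of the 96 named probe sets 24 stayed called without any 1 array and 22 under every alternative run on them, while 22 were lost without each of the 4. None of these 96 differences from wild type changed sign under the alternatives run on it, but that was largely fixed in advance. Leaving out 1 array could not change a sign, as the TgSREBP-1a and wild-type arrays of each called probe set did not overlap. Thresholds, filters and variance models leave the difference itself unchanged.

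Deviations of same-numbered arrays correlated at 0.24 between TgSREBP-1a and wild type and at 0.20 to 0.33 for 7 of 10 pairs of groups, but at -0.17 to -0.11 for the other 3, all with TgSREBP-2. The 18S signal was higher on replicate 2 in each group (6.06 and 8.06 in TgSREBP-2). As the labels tie no number to a shared animal or day, the numbers were not taken to pair the arrays. A replicate block gave 127 higher and 59 lower against wild type, and 53 and 43 against TgSREBP-2. The crossed pairing, added after seeing the data because TgSREBP-1a and TgSREBP-2 arrays correlated at -0.17, gave 43 and 35. With the mean over a gene's probe sets, the lists of conjugation enzymes and cytoskeleton lost 1 and 2 of their higher calls, bile duct markers lost their lower call, and the bile duct median moved from 0.10 to -0.04.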
